A study of Mus musculus with 4 samples.

Results

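The nuclear genes of the mitochondrial respiratory chain were followed in mouse cells with the genotype label Calu-KO, in which Calu is targeted, the gene of the endoplasmic reticulum calcium-binding protein calumenin. Members were the protein-coding rows of the deposited expression table whose gene name starts with Nduf (complex I), Uqcr (complex III), Cox4 to Cox8 (complex IV) or Atp5 (complex V, the ATP synthase), together with Sdha, Sdhb, Sdhc and Sdhd (complex II) and Cyc1 (complex III). This rule took 95 of the 54532 rows of the table, 22046 of which are protein-coding. The names bring in more than structural subunits: 8 of the 95 are assembly factors of complex I (the Ndufaf genes), and Cox7a2l and Atp5s encode a supercomplex factor and a coupling factor. Ndufa4 and Ndufa4l2 carry complex I names but belong with complex IV, where they are described. No member was chosen by its values.

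The respiratory chain passes electrons taken from NADH by complex I, or from succinate by complex II, through ubiquinone to complex III, then by cytochrome c to complex IV and oxygen. Complexes I, III and IV pump protons across the inner mitochondrial membrane, and complex V uses the return of those protons to make ATP. All subunits of complex II and most of the others are encoded in the nucleus and imported, while a small core of complexes I, III, IV and V is made from the mitochondrial genome. Several complex IV subunits exist as a common form and a form restricted to tissues such as heart, skeletal muscle, lung or testis, or induced by low oxygen.

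RNA was sequenced from mouse cells labelled as primary lung fibroblasts, in 2 libraries of the genotype Calu-KO and 2 of the genotype Calu-WT, called WT here. Calu-KO sample titles read KD, and the method of targeting is not given in the sources used here. No treatment, strain or age is labelled. Whether replicates are separate cultures or animals is not stated either, so a p-value here reflects the spread among 4 libraries and that spread may be technical. Calu itself had 14.9 and 10.9 FPKM in Calu-KO replicates 1 and 2, against 178 and 177 FPKM in WT replicates 1 and 2 (FPKM, fragments scaled to gene length and sequencing depth). It was 13.7-fold lower (log2 change -3.70 ± 0.17 SE, limma adjusted p = 0.00493).

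Recovered reads numbered 16038560 to 16510048 per Calu-KO library and 15635448 to 16033535 per WT library. The Calu-KO libraries differed more from each other than the WT libraries did, with a Pearson correlation of log2 values of 0.966 in Calu-KO and 0.989 in WT, over 11885 tested genes. Calu-KO replicate 2 stood apart: its correlation with the WT libraries was 0.938 and 0.939, against 0.964 for Calu-KO replicate 1 with each. Mitochondrial genome transcripts took 4.002% of the reads there and 2.52% in Calu-KO replicate 1, with 2.43% and 2.53% in WT. Of 10 fibroblast marker genes 7 were tested, and the list summed to 1150 and 1402 FPKM in Calu-KO and 1187 and 1180 FPKM in WT, with Vim at 531 to 650.02 FPKM in every library. Within the list Col3a1 passed as lower (11.9 and 12.2 FPKM in Calu-KO, 38.9 and 39.4 FPKM in WT, adjusted p = 0.0115), and Col1a2 and Fn1, which did not pass, had log2 changes of 0.67 and -0.56. Dcn and Lum were listed at 0 in all 4 libraries and Thy1 had at most 6 reads.

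Most members had a lower mean in Calu-KO, mainly through replicate 2 and not in complex II, and 1 gene passed the test. Of the 95 members, 89 reached a mean of 1 FPKM over the 4 libraries and were tested, by limma on log2(FPKM + 1) with Benjamini-Hochberg adjustment over all tested genes and a threshold of 0.05. Of all tested genes 2.77% passed (112 higher and 217 lower), and 1 of the 89 members did, the muscle isoform gene Cox6a2, which was lower. At an unadjusted p under 0.05 there were 25 members, 28.1%, against 2944 genes, 24.8%, of all tested. The share of members past a threshold was therefore near that of all genes, while their direction was one-sided: 75 of 89 had a negative log2 change, 84.3%, against 49.3% of all tested genes. The median log2 change was -0.33 for members and 0.01 for all tested genes. Scaling by total reads in place of the deposited scaling gave 45 genes higher and 152 lower, with Cox6a2 again the only member. Of the 25 members at an unadjusted p under 0.05, 13 were in complex I, 1 in complex II, 3 in complex III, 3 in complex IV and 5 in complex V. Limma-voom on the recovered reads called 0 members higher (3.04% of all tested genes were) and 3 lower (3.95% of all), Cox6a2, Ndufa4l2 and Atp5o.

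Both Calu-KO libraries lay below both WT libraries for 51 of the 89 tested members, 57.3% (29.7% of tested genes), and above both for 4 members, 4.49% (32.0% of tested genes). The 4 were Ndufv2, Sdha, Sdhb and Ndufaf4. Bulk RNA cannot tell apart fewer cells of a type and less RNA per cell. The size of the difference depended on the library. Relative to the WT mean, the median member was at -0.08 on the log2 scale in Calu-KO replicate 1, with 60 of 89 below 0, and at -0.48 in Calu-KO replicate 2, with 80 of 89 below 0. Calu-KO replicate 2 was below Calu-KO replicate 1 for 76 of 89 members, and for 5630 of 11885 tested genes.

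**Figure D1:**
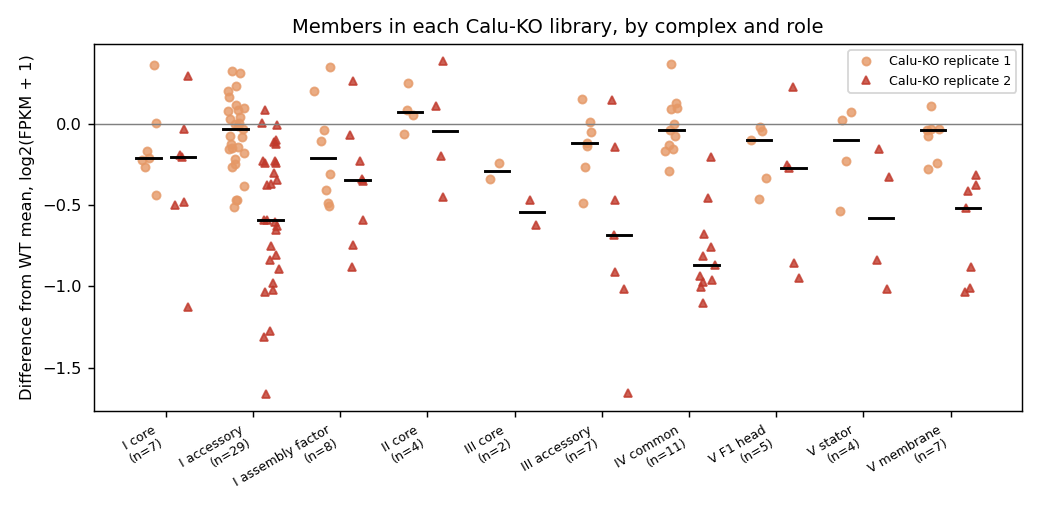
Difference of each tested member from the WT mean, log2(FPKM + 1), in Calu-KO replicate 1 (circles) and Calu-KO replicate 2 (triangles), by complex and role, with the median as a black bar. Not drawn are the 3 tested restricted isoforms of complex IV, Cox7a2l and Atp5s. For the 11 common complex IV subunits the median was -0.04 in replicate 1 and -0.87 in replicate 2, where the 4 complex II genes had the median nearest to 0, -0.05.

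With 1 Calu-KO library left out, the remaining one is assumed to vary like the WT pair. Without Calu-KO replicate 2, 4 members were higher (Ndufa3, Ndufa4, Ndufaf6 and Ndufv2; 7.76% of all tested genes were higher) and 15 lower (9.51% of all tested genes), with a median of -0.08. Without Calu-KO replicate 1, 4 members were higher (24.6% of all) and 62 lower (23.6% of all), with a median of -0.48. Without either WT library no member passed (limma). At an unadjusted p under 0.05 there were then 7 members in each case, beside 8.65% of all tested genes without WT replicate 1 and 8.99% without WT replicate 2.

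Many respiratory gene promoters are known to bind NRF1, so the 250 bases upstream of the RefSeq start (GRCm38.p6) were searched on both strands for its motif, GCGC, any base, T and GCGC. Of 94 member names 74 had a promoter, and 14 of them, 18.9%, held the motif, against 10.1% of 8392 tested genes and 4.23% of 27025 genes with a promoter. The 6 windows printed, 80 bases each and 5′ to 3′ on the gene's strand, are those that lay outside the deposited gene row, so that they show sequence before the transcript. Capitals mark the motif, read on either strand.
Ndufa11, chr17:56717667-56717746, plus strand: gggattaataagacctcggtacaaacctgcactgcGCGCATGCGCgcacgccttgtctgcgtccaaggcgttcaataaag
Ndufs5, chr4:123718240-123718319, minus strand: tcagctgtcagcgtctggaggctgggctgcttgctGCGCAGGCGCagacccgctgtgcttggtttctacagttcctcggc
Ndufaf4, chr4:24897935-24898014, plus strand: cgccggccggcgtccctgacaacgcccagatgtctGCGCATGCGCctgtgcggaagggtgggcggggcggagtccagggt
Sdhd, chr9:50603884-50603963, minus strand: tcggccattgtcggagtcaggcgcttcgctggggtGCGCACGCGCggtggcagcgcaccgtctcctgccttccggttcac
Cox6a1, chr5:115349054-115349133, minus strand: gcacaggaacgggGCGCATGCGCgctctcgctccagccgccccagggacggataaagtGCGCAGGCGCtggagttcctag
Atp5h, chr11:115420016-115420095, minus strand: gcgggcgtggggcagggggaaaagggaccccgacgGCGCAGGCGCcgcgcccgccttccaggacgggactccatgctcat
Cox6a1 held 2 motifs in its window and the other 5 genes 1 each. A match describes the letters only.

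The median log2 change was -0.30 for the 14 tested members with the NRF1 motif and -0.36 for the 57 without. Of the genes printed, Ndufs5 had a log2 change of -0.45, Cox6a1 of -0.42, Sdhd of -0.26, Ndufa11 of -0.10, Atp5h of -0.04 and Ndufaf4 of 0.23, and none passed. The NF-Y box CCAAT was in 44.6% of member promoters, 41.6% of those of tested genes and 37.5% of all. The ETS site CCGGAAGT was in 4.05% of member promoters, 7.71% of those of tested genes and 3.23% of all, and the YY1 site AANATGGCG in 4.05%, 2.81% and 1.29%. The hypoxia response element core ACGTG was in 18.9% of member promoters, 26.1% of those of tested genes and 18.5% of all. Median log2 changes of tested members with and without the motif were -0.33 and -0.34 for NF-Y. They were -0.16 and -0.35 for ETS (3 with it) and -0.53 and -0.33 for YY1 (3 with it). For the hypoxia core they were -0.55 (13 with it) and -0.33. These differences were not tested.

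Complex I, the NADH dehydrogenase, was at a summed 1210 and 902 FPKM in Calu-KO and 1250.5 and 1275 FPKM in WT over its 36 structural genes. This was 95.8% of the WT mean in Calu-KO replicate 1 and 71.4% in replicate 2. Of 44 tested complex I members, assembly factors included, none passed, 36 lay below 0 and the median log2 change was -0.26. Structural genes with high means differed in direction. Ndufv2, a core subunit of the NADH-binding module, had 90.03 and 86.1 FPKM in Calu-KO and 68.4 and 71.6 FPKM in WT. Both Calu-KO libraries were above both WT libraries (log2 change 0.33 ± 0.11, adjusted p = 0.158), the greatest positive change among all members. Ndufa8, an accessory subunit, had 59.3 and 49.0 FPKM in Calu-KO and 72.9 and 82.7 FPKM in WT, with no overlap of the groups (-0.52 ± 0.14, adjusted p = 0.128).

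The lowest log2 changes in complex I were those of Ndufa1 and Ndufb3. Ndufa1, a small membrane-arm subunit, had 46.2 and 15.5 FPKM in Calu-KO and 51.0 and 51.6 FPKM in WT (-0.91 ± 0.49, adjusted p = 0.305). Its first Calu-KO library was near WT and its second far below. Ndufb3, a membrane-arm subunit, had 23.0 and 12.7 FPKM in Calu-KO and 32.8 and 31.7 FPKM in WT (-0.87 ± 0.27, adjusted p = 0.149). The core iron-sulfur subunit gene Ndufs7 had 29.3 and 17.8 FPKM in Calu-KO and 41.4 and 38.7 FPKM in WT (-0.78 ± 0.24, adjusted p = 0.146). In both of these genes each Calu-KO library lay below WT. Ndufa2, Ndufa7, Ndufa12, Ndufc2 and Ndufv3, all accessory subunits, also had separate groups, with log2 changes of -0.72 to -0.60 and adjusted p of 0.107 to 0.307.

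Of the 8 complex I assembly factors none passed, 6 were lower without overlap of the groups (29.7% of all tested genes were) and the median was -0.32. Ndufaf8 had 8.58 and 6.40 FPKM in Calu-KO and 11.3 and 14.1 FPKM in WT (-0.69 ± 0.18, adjusted p = 0.117). Ndufaf7, an arginine methyltransferase, had 6.21 and 5.70 FPKM in Calu-KO and 9.19 and 9.02 FPKM in WT (-0.54 ± 0.11, adjusted p = 0.0819). Its Calu-KO libraries were close to each other, unlike those of most members. Ndufaf4 lay the other way, with 20.6 and 21.6 FPKM in Calu-KO and 17.1 and 18.5 FPKM in WT (0.23 ± 0.11, adjusted p = 0.258).

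Complex II, succinate dehydrogenase, had the median log2 change nearest to 0 of the 5 complexes, and also the longest median mRNA, 2065.5 bases. Its 4 genes summed to 287 and 257 FPKM in Calu-KO and 272 and 285 FPKM in WT, and their median log2 change was 0.01. Sdha, the flavoprotein that oxidises succinate, had 65.2 and 71.9 FPKM in Calu-KO and 53.9 and 55.6 FPKM in WT (0.32 ± 0.11, adjusted p = 0.176). Sdhb, the iron-sulfur subunit, had 50.4 and 51.2 FPKM in Calu-KO and 45.0 and 50.0 FPKM in WT (0.10 ± 0.11). The membrane anchors had negative log2 changes, though Sdhc in Calu-KO replicate 1 lay above both WT libraries. Sdhc had 39.4 and 32.9 FPKM in Calu-KO and 37.9 and 38.0 FPKM in WT (-0.07 ± 0.13), and Sdhd 132 and 101 FPKM in Calu-KO and 135 and 141 FPKM in WT (-0.26 ± 0.16). No member of complex II passed the test.

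**Figure D2:**
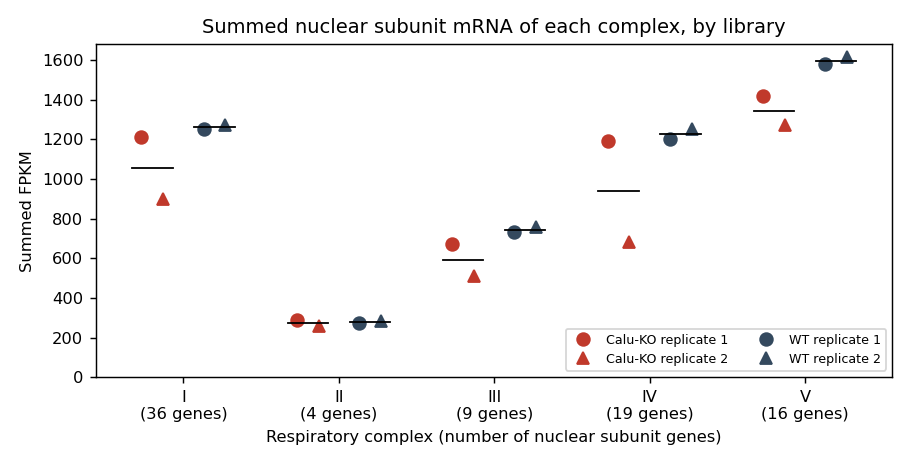
Summed FPKM of the nuclear structural subunits of each complex in every library (circles replicate 1, triangles replicate 2; black bars are group means). Calu-KO replicate 2 is the lowest library in each complex, from 55.7% of the WT mean in complex IV to 92.3% in complex II.

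Complex III, the cytochrome bc1 complex, summed to 672 and 511 FPKM in Calu-KO and 733 and 757 FPKM in WT over its 9 genes, and 8 of them had a negative log2 change (median -0.40). Cyc1, cytochrome c1, had 76.1 and 69.6 FPKM in Calu-KO and 98.9 and 94.5 FPKM in WT (-0.40 ± 0.11, adjusted p = 0.128). Uqcrfs1, the Rieske iron-sulfur protein, had 109 and 84.0 FPKM in Calu-KO and 128 and 131 FPKM in WT (-0.43 ± 0.16). Both nuclear-encoded electron-carrying subunits were thus below WT in both Calu-KO libraries. The small accessory subunit gene Uqcr11 had 23.5 and 9.93 FPKM in Calu-KO and 34.5 and 32.3 FPKM in WT (-1.07 ± 0.38, adjusted p = 0.1798), and Uqcrq, another, had separate groups with -0.64 ± 0.26. Uqcr10, the most abundant per length, had 136 and 91.4 FPKM in Calu-KO and 139 and 157 FPKM in WT (-0.40 ± 0.21). The long core-protein genes differed little: Uqcrc1 had a log2 change of -0.14 ± 0.11 and Uqcrc2 of 0.08 ± 0.11.

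Complex IV, cytochrome c oxidase, showed the widest gap between the Calu-KO libraries. Its 19 nuclear subunit genes summed to 1191 and 684 FPKM in Calu-KO and 1203 and 1254 FPKM in WT, 96.9% and 55.7% of the WT mean. The 11 common subunits held nearly all of that sum, at 1182 and 679.8 FPKM in Calu-KO and 1163 and 1219 FPKM in WT, and none passed. Cox8a, the highest, had 248 and 139 FPKM in Calu-KO and 259.9 and 284 FPKM in WT (-0.55 ± 0.29). Cox6a1 had 188 and 109 FPKM in Calu-KO and 188 and 197 FPKM in WT (-0.42 ± 0.27), and Cox6b1 had 156 and 72.4 FPKM in Calu-KO and 151 and 161 FPKM in WT (-0.55 ± 0.36). In Cox6b1 the first Calu-KO library lay between the WT libraries and the second was below them. Cox5a and Cox5b, subunits of the matrix side, had separate groups (-0.55 ± 0.26 and -0.65 ± 0.25, adjusted p = 0.261 and 0.201). Cox7b had a log2 change of -0.39 ± 0.32, Cox4i1 of -0.38 ± 0.22 and Cox7a2 of -0.30 ± 0.14. Cox7a2l, which links complexes III and IV, had 76.8 and 84.7 FPKM in Calu-KO and 92.0 and 91.1 FPKM in WT (-0.18 ± 0.11), with Calu-KO replicate 2 the nearer to WT.

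The 2 lowest log2 changes among all tested members were those of restricted isoforms of complex IV, and both genes were low in each Calu-KO library. Cox6a2, the heart and skeletal muscle form of subunit VIa (ENSMUSG00000030785, chromosome 7, 128205435 to 128206387, mm10, minus strand), had 1.22 and 0.906 FPKM in Calu-KO and 3.95 and 4.78 FPKM in WT, from 14 and 9 reads in Calu-KO and 44 and 54 reads in WT. It fell 4.11-fold in Calu-KO (1.06 ± 0.221 FPKM against 4.37 ± 0.586 FPKM in WT, SD, n = 2 each; log2 change -1.38 ± 0.17, limma adjusted p = 0.0332). The groups were far apart, but the call was lost without WT replicate 1 (adjusted p = 0.0950), without WT replicate 2 (0.159) and with no filter on low values (0.137), and over 16 alternatives the adjusted p ran from 7.5e-06 to 0.159. Cox6a2 made up 0.645% and 0.821% of the summed Cox6a1 and Cox6a2 FPKM in Calu-KO and 2.06% and 2.36% in WT.

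Markers of heart and skeletal muscle differed in direction. Their summed level over 9 genes was 4.41 and 3.78 FPKM in Calu-KO and 10.7 and 9.79 FPKM in WT, almost all of it Acta1 and Tnnt2, the 2 that were tested. Acta1, skeletal muscle actin, had 2.19 and 2.14 FPKM in Calu-KO and 6.88 and 6.11 FPKM in WT and passed as lower (limma adjusted p = 0.0266). Ckm and Actc1 were listed at 0 in all 4 libraries, and Mb had 0 reads in Calu-KO and 3 and 5 in WT. Tnnt2 did not pass (adjusted p = 0.0752), Tnni3 and Myl2 overlapped WT, and Myh7 had 13 and 21 reads in Calu-KO and 5 and 3 in WT. Macrophage markers summed to 4.17 and 4.12 FPKM in Calu-KO and 11.1 and 12.2 FPKM in WT, nearly all of it Lyz2 and Cd68. Lyz2 passed as lower (limma adjusted p = 0.0254) and Cd68 did not pass (limma adjusted p = 0.0888). Adgre1 was listed at 0 in all 4 libraries and Ptprc had at most 1 read. Epithelial markers summed to 0.446 and 0.213 FPKM in Calu-KO and 3.17 and 3.38 FPKM in WT. In WT most of that was Krt8 (88 and 74 reads), and Epcam and Sftpc were listed at 0 in all 4 libraries. Krt8 passed as lower (limma adjusted p = 0.0274). Mesothelial markers summed to 25.3 and 22.5 FPKM in Calu-KO and 33.1 and 30.4 FPKM in WT, nearly all of it Msln, which did not pass. The part of other cell types in the Cox6a2 difference was not tested.

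Ndufa4l2, an isoform of the complex IV subunit Ndufa4 that is known to be induced in low oxygen (ENSMUSG00000040280, chromosome 10, 127514967 to 127517154, mm10, plus strand), had 6.59 and 1.75 FPKM in Calu-KO and 32.2 and 27.5 FPKM in WT. These values rested on 122 and 28 reads in Calu-KO and 577 and 501 reads in WT. All Calu-KO values lay far below WT, a 7.16-fold lower mean, but the Calu-KO libraries also lay far from each other, and the test was missed (log2 change -2.75 ± 0.48, adjusted p = 0.0609). Its log2 change lay between -3.48 and -2.02 in 17 alternatives, of which 7 passed. Ndufa4 had 120.4 and 80.6 FPKM in Calu-KO and 88.9 and 97.3 FPKM in WT (0.08 ± 0.21). Ndufa4l2 thus made up 5.19% and 2.13% of the pair's FPKM in Calu-KO and 26.6% and 22.1% in WT. The row overlaps Shmt2 on the other strand, and without a stated strand setting reads of the pair cannot be told apart. Of 76 other tested genes within 5 Mb of it, 5 passed as lower (1.83% of all tested genes did), 17 lay above 0 and the median was -0.21. The part of this neighbourhood in its values was not tested.

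**Figure D3:**
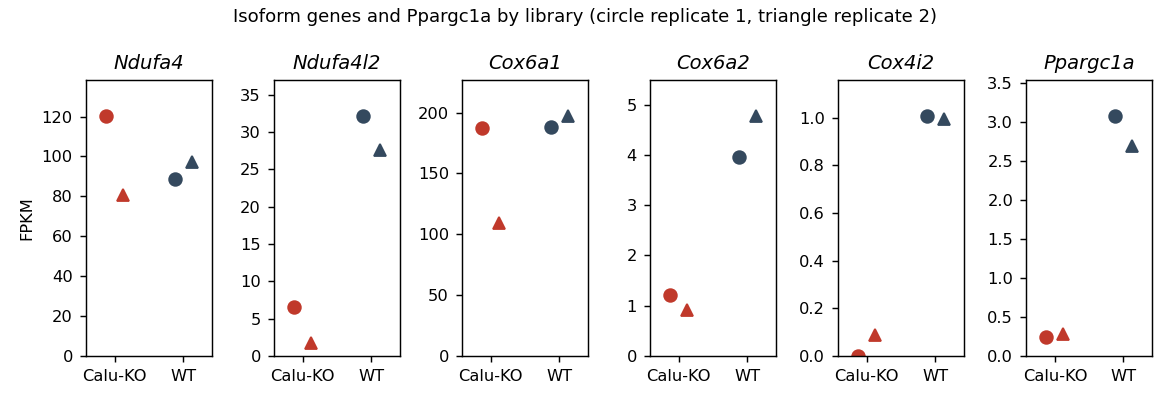
FPKM in every library (circles replicate 1, triangles replicate 2; each panel has its own axis from 0) for common and restricted isoforms of complex IV and for the regulator Ppargc1a. Ndufa4l2, Cox6a2, Cox4i2 and Ppargc1a were lower in both Calu-KO libraries, whereas Ndufa4 overlapped WT and Cox6a1 was near WT in replicate 1.

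The other restricted forms were at the limit of detection. Cox4i2, the lung form of subunit IV, had 0 and 1 reads in Calu-KO and 13 reads in each WT library. Scaled for depth it was 24.8-fold lower, with an exact 95% binomial interval of 4.08 to 1019 that covers counting error only. Cox8b, a muscle form, had 1 and 0 reads in Calu-KO and 8 and 4 in WT, 11.5-fold lower with an interval of 1.70 to 490.2. Both were under the filter and were not tested. Cox7a1, a form of muscle and brown fat, had 8 and 12 reads in Calu-KO and 11 and 8 in WT (log2 change 0.08 ± 0.23), so that restricted forms did not all lie low. Cox6b2, Cox7b2 and Cox8c, which are known from testis, had at most 1 read in any library. The row that repeats the name Atp5o (ENSMUSG00000116933) had none, where 3 reads would be 0.335 to 0.387 FPKM.

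Complex V, the ATP synthase, held the highest single levels. Its 16 structural genes summed to 1420 and 1272 FPKM in Calu-KO and 1579 and 1614 FPKM in WT, and 15 of the 16 had a negative log2 change. Of the 5 rotary head genes 4 had a negative log2 change, all but Atp5a1. Atp5b, the catalytic beta subunit, had 321 and 335 FPKM in Calu-KO and 401 and 408 FPKM in WT (-0.30 ± 0.11, adjusted p = 0.192). Atp5a1, the alpha subunit, had 328 and 388 FPKM in Calu-KO and 329 and 335 FPKM in WT (0.10 ± 0.14). The alpha subunit was near WT in 1 Calu-KO library and above it in the other, while the beta subunit was below WT in both.

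Among the smaller ATP synthase genes, Atp5o, the stator subunit that confers oligomycin sensitivity, had 30.4 and 21.6 FPKM in Calu-KO and 42.6 and 46.8 FPKM in WT (-0.78 ± 0.19, adjusted p = 0.1003). Atp5d, the delta subunit of the central stalk, had 69.5 and 52.7 FPKM in Calu-KO and 97.1 and 94.98 FPKM in WT (-0.66 ± 0.16, adjusted p = 0.104). Both lay below WT in each Calu-KO library. Atp5e and Atp5j had separate groups too, at -0.52 ± 0.29 and -0.53 ± 0.22. The 3 genes of the proton-carrying c ring encode the same mature protein, and Atp5g2 gave 62.1% and 58.0% of their FPKM in Calu-KO and 62.3% in each WT library. Atp5g2 had a log2 change of -0.62 ± 0.26, Atp5g3 of -0.58 ± 0.22 and Atp5g1 of -0.18 ± 0.14, and none passed. Atp5s, the coupling factor B gene, had 49 and 52 reads in Calu-KO and 76 and 97 in WT (-0.46 ± 0.17).

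**Figure D4:**
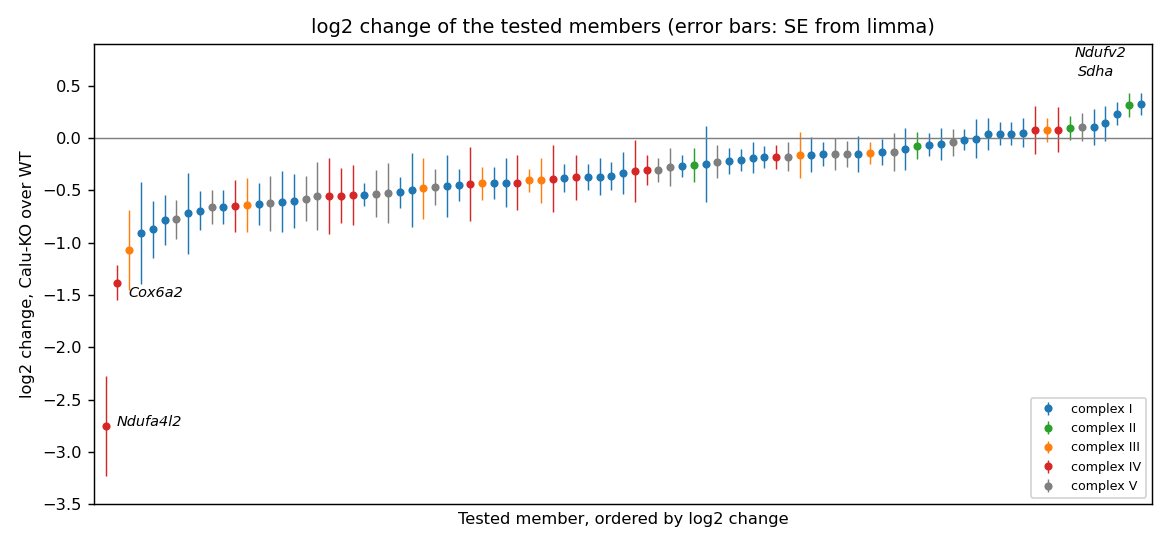
log2 change of Calu-KO over WT with its SE from limma for the 89 tested members, ordered by size and coloured by complex, with the genes at both ends named. Ndufa4l2 at -2.75 and Cox6a2 at -1.38 stand at the low end, Ndufv2 at 0.33 and Sdha at 0.32 at the high end, and Cox6a2 alone passed the threshold.

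Respiratory chain genes have short transcripts, and transcript length moved with the difference in 1 library. The median GENCODE mRNA of the tested members is 865 bases, against 2898 bases over 10183 tested genes with a coding transcript. Of the members 58.4% are at most 1000 bases long, against 6.60% of those genes. The median mRNA by complex was 939.5 bases in I, 2065.5 in II, 1363 in III, 645 in IV and 838 in V. Across the 89 members, the difference of Calu-KO replicate 2 from the WT mean had a Spearman rho of 0.546 with length, and across all 10183 genes 0.505. For Calu-KO replicate 1 the values were -0.0066 and 0.113, and for the difference between the WT libraries -0.016 and 0.0515. With the GC content of the mRNA, Calu-KO replicate 1 had a rho of -0.350 across members and -0.279 across all, and Calu-KO replicate 2 of -0.242 and -0.341. These are correlations across genes of the same libraries, and genes are not independent replicates.

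In Calu-KO replicate 2 the medians of short genes were below 0, in members and in other genes. Members of up to 600 bases had a median of -0.81 (n = 23), against -0.44 for 115 other genes of that length. From 600 to 1000 bases the medians were -0.75 for 29 members and -0.46 for 505 other genes. From 1000 to 1500 bases members were at -0.26 (n = 17) and other genes at -0.32 (n = 993), and from 1500 to 2000 bases at -0.23 (n = 12) and -0.17 (n = 1250). Above 2000 bases 8 members were at -0.16 and 7231 other genes at 0.12. In Calu-KO replicate 1 the medians of members lay between -0.17 and 0.03 in these ranges, and those of other genes between -0.06 and 0.02. The part of transcript length in the members' lower levels, and in the differences between complexes, was not tested.

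**Figure D5:**
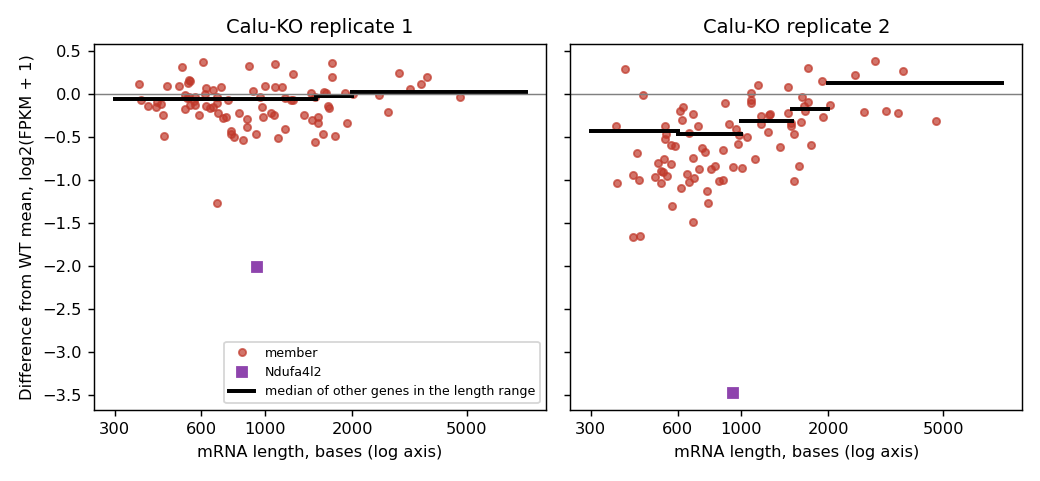
Difference from the WT mean, log2(FPKM + 1), against mRNA length (log axis) for the 89 tested members in Calu-KO replicate 1 and Calu-KO replicate 2. Black bars are medians of the other tested genes in 5 length ranges; Ndufa4l2, the square, is low in both libraries, and the short members lie low in replicate 2.

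With the trend on mRNA length removed in each library, an alternative chosen after the data were seen, the median member was at -0.11 and all genes at 0.02. Of the 89 members 57 lay below 0, and of the 10183 genes 4817. Then 3 members passed as higher, namely Ndufv2, Ndufa5 and Ndufaf6 (8.41% of all genes did), and 9 as lower (8.29% of all genes). The 9 were Cox6a2 (-1.116, adjusted p = 0.00739), Ndufa4l2 (-2.49, adjusted p = 0.00837), Uqcr11, Ndufb3, Ndufs7, Atp5o, Ndufv3, Atp5d and Ndufaf7. Ndufv2, at 0.49, had an adjusted p of 0.0216.

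Other genes of mitochondrial respiration were read from 9 lists. In 6 of them no gene passed, in 2 of them 1 was higher and in 1 of them 1 was lower (0.942% of tested genes were higher and 1.83% lower). The lower gene was Ppargc1a, which encodes PGC-1 alpha, the coactivator that drives nuclear respiratory genes. It had 0.242 and 0.280 FPKM in Calu-KO and 3.08 and 2.68 FPKM in WT, from 27 reads in each Calu-KO library and 332 and 294 reads in WT. It fell 11.0-fold (log2 change -1.62 ± 0.17, adjusted p = 0.0266), with both Calu-KO libraries alike. The call was lost with no filter on low values, and also with either WT library left out. No other of the 16 tested regulators of respiratory genes passed, Nrf1 and the mitochondrial transcription factor gene Tfam included. Of the 16, 3 had an unadjusted p under 0.05 (24.8% of all tested genes did), and the list's median was -0.06.

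The higher genes were Nubpl, which inserts iron-sulfur clusters into complex I, and Dld, the dihydrolipoamide dehydrogenase shared by the pyruvate and 2-oxoglutarate dehydrogenase complexes. Nubpl had 6.04 and 6.16 FPKM in Calu-KO and 2.92 and 3.12 FPKM in WT (2.02-fold, adjusted p = 0.0441). Dld had 125 and 118 FPKM in Calu-KO and 71.2 and 72.9 FPKM in WT (1.69-fold, adjusted p = 0.0436). Neither gene passed with no filter on low values, on rescaling by total reads or on rescaling to equal FPKM totals. Both calls were also lost with either WT library left out. Both lie on chromosome 12 among genes that were also higher. Within 5 Mb of Nubpl 32 other tested genes had a median of 0.66 and 6 passed as higher. Within 5 Mb of Dld 26 had a median of 0.95 and 16 passed as higher (0.942% of all tested genes did). The part of this neighbourhood in their values was not tested.

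In the 6 remaining lists median log2 changes were nearer to 0 than that of the members, and no gene passed in limma. For the counts below, 24.8% of all tested genes had an unadjusted p under 0.05 and 3.95% were lower in limma-voom. The 77 tested mitochondrial ribosome genes had a median log2 change of -0.19, with -0.08 in Calu-KO replicate 1 and -0.35 in replicate 2, and Mrps6 and Mrpl41 had the greatest changes (-1.19 ± 0.20 and -0.95 ± 0.19, adjusted p = 0.0561 and 0.0798). Of these 77, 17 had an unadjusted p under 0.05, and limma-voom called 6 lower. Import and matrix chaperone genes had a median of -0.18 over 29, with Timm10 at -1.07 and Timm13 at -0.99, 5 of 29 at an unadjusted p under 0.05 and 2 lower in limma-voom. Electron carriers and ubiquinone entry points (17 tested, 4 at an unadjusted p under 0.05) were at -0.18, with Coq3 at -0.56 and Coq7 at -0.46. Carriers and channels (10, with 2 at an unadjusted p under 0.05 and 1 lower in limma-voom) were at -0.19, with Vdac2 at -0.57 and Atpif1 at -0.43. Cristae genes (12, with 3 at an unadjusted p under 0.05) were at -0.04, with Chchd3 and Immt at 0.48 and 0.46. The lists of Nubpl and Dld, assembly factors outside the member rule (37 tested) and citric acid cycle genes (18), were at -0.16 and -0.04. The 13 mitochondrial genome subunits, partners of the members in the same complexes, lay mostly the other way, with 2 below 0. Their median was 0.31, from -0.05 in Calu-KO replicate 1 and 0.51 in replicate 2. The 1 gene at an unadjusted p under 0.05 was lower, at -0.88 on at most 10 reads per library.

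By coordinates 22 of the 95 members overlap another row of at least 1 FPKM, and 5 have a pseudogene of the same name. Whether reads were shared between such rows was not tested. Of those pseudogenes Ndufab1-ps was the highest, at a mean of 8.15 FPKM, so the level of Ndufab1 (8.64 and 6.61 FPKM in Calu-KO, 8.01 and 7.80 FPKM in WT) is uncertain. The order of member levels was kept across libraries, with a Spearman rho of 0.949 to 0.997 between any pair over 95 members.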

How the data were processed

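RNA-seq covered 2 Calu-KO and 2 WT libraries. The authors deposited FPKM values per gene with gene length and coordinates. Per the labels' protocols the aligner was HISAT2 2.0.5 with paired-end reads, and per the submitters' processing notes the build was mm10. For the counter, annotation and strand setting the sources used here give nothing. Whole reads were recovered from the product of FPKM and gene length, which was a multiple of a constant of the library in 100% of values (tolerance 0.001 reads). The FPKM columns were already scaled by median-of-ratios size factors. At this depth 1 read in 1 kb is 0.0591 to 0.0684 FPKM, and intervals and floors cover counting error only.

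The 11885 genes averaging 1 FPKM or more were tested as log2(FPKM + 1), a scale that understates changes of low genes. Limma 3.58.1 in R 4.3.3 (lmFit, eBayes with intensity trend) gave two-sided p-values, adjusted by Benjamini-Hochberg with 0.05 as threshold, and was tested on simulated data. An exact permutation test of 2 against 2 cannot go below 0.333. Folds are ratios of mean FPKM, or of reads scaled for depth under 4 reads. The mean chi-square per gene between replicates was 46.3 in Calu-KO and 3.82 in WT, so no pair was 1 library. mRNA lengths came from GENCODE M21, which held 95 of 95 members by identifier, and promoters from RefSeq. Complex sums are of structural subunits.

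The members and gene lists were chosen with earlier results of these data known. Named were Calu, members past the threshold, the 3 most abundant subunits and greatest rises and falls per complex, isoform pairs, members with separate groups and a log2 change of at least 0.5 in size, and the leading genes of other lists. A gene that this rule took is not reported here. Alternatives were other pseudocounts, filters, scalings and priors, a replicate block, removal of GC and length trends, leaving out each library, and limma-voom on recovered reads.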

Additional observations from a re-analysis of the deposited data

How the results depend on the processing

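The median log2 change of the tested members kept its sign in all 17 alternatives, between -0.48 (without Calu-KO replicate 1) and -0.08 (without Calu-KO replicate 2). With GC and length trends removed it was -0.14. Counts of calls moved more. With 1 library left out, genes called higher ran from 8 to 2926 and lower from 34 to 2805, members higher from 0 to 4 and lower from 0 to 62, and genes of the other lists higher from 0 to 25 and lower from 0 to 94, against 112, 217, 0, 1, 2 and 1 with all libraries. With no filter on low values 0 genes, members and list genes passed in either direction (limma; 3886 genes and 22 members at an unadjusted p under 0.05). At a mean of at least 5 FPKM, 130 genes were lower, 0 members, and of the other lists 1 gene was higher and 0 lower; Cox6a2 and Ppargc1a are below that filter. Rescaling by total reads gave 45 genes higher, and by it or by equal FPKM totals 0 list genes were higher. With no intensity trend 1 list gene was higher.

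The trend removals raised the counts. With GC and length trends removed, 576 genes were higher and 622 lower, 5 members were lower, and 7 list genes were higher and 13 lower. With these trends removed and a replicate block, 1017 genes were higher and 1032 lower, 1 member was higher and 16 lower, and 8 list genes were higher and 31 lower. With the mRNA length trend removed, 856 genes were higher and 844 lower, 3 members were higher and 9 lower, and 13 list genes were higher and 14 lower. Limma-voom on recovered reads called 361 genes higher and 469 lower, 3 members lower (Cox6a2, Ndufa4l2 and Atp5o) and 10 list genes lower. The last 2 alternatives were chosen after the data were seen, and the cause of these shifts was not tested.

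Across genes, the deviations of samples of the same number from their group means had a correlation of 0.0153. Because Calu-KO replicate 2 stood apart from the other libraries, this cannot decide whether the numbers pair the libraries. With a replicate block 181 genes were higher and 312 lower, 2 members were lower (Cox6a2 and Ndufa4l2), and 1 list gene was higher and 5 lower. For 22 named members, 373 values under the alternatives were compared: 311 kept their direction and side of the threshold, 54 passed only there and 3 no longer passed (all Cox6a2). The other 5 changed sign, none of them called: Atp5a1 (-0.0046), Sdhb (-0.0100) and Uqcrc2 (-0.0288) on rescaling by total reads, and Atp5a1 and Sdhc without Calu-KO replicate 2. With 1 library left out Atp5a1 ran from -0.0173 to 0.225, and Sdhc from -0.2008 (without Calu-KO replicate 1) to 0.0541 (without Calu-KO replicate 2). Depth limited Cox4i2, Cox8b and the testis forms to 13 reads or fewer per library.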
